A study of Mus musculus with 2 samples.

Results

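Chaperones are the proteins that fold, hold and rescue other proteins, and 45 mouse genes for heat shock proteins, chaperonins, folding enzymes of the endoplasmic reticulum and their regulators were followed here. Members were matched to a list of names by a rule that used no values, but the list itself was drawn up with earlier results of these data known. Every probe set (a group of short probes read as 1 value) assigned to a single listed gene was kept. This gave 115 probe sets for 43 of the 45 genes, out of 45037 probe sets on the array. Hsp90ab1 and Hsf1 had no probe set of their own. Of the 115 probe sets, 101 were detected, meaning that at least 1 array lay above its own median intensity over all probe sets, and they covered 42 genes.

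The samples were haematopoietic stem cells, which renew themselves in bone marrow and supply every blood lineage. One array held total RNA of cells labelled as Wip1 knock-out and the other total RNA of wild-type cells, both from mice 3 months old. Wip1, encoded by Ppm1d, is a phosphatase that dampens p53 and DNA damage signalling. The knockout allele, the strain, the sex, the sorting of the cells and the number of animals behind each array were not among the labels used.

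Heat shock proteins are named by size. Hsp90 and Hsp70 use ATP to bind and release client proteins, Hsp40 proteins deliver clients to Hsp70 and trigger its ATPase, small heat shock proteins hold unfolded clients, and the CCT ring folds actin and tubulin inside a closed chamber. Heat shock factor 1 switches on the cytosolic set when unfolded proteins accumulate, and the unfolded protein response does so for the endoplasmic reticulum. Haematopoietic stem cells are known for a low rate of protein synthesis and a sensitivity to misfolded protein.

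With 1 array per genotype no test can be made, so every difference below describes these arrays and cannot separate genotype from any other difference between the stem cell samples. In bulk RNA, fewer cells of a type and less RNA per cell cannot be told apart. Differences are log2 knockout minus wild type, centred so that the median over all detected gene probe sets was 0. A gene is represented by its brightest probe set unless another is named. Probe sets of 1 gene disagreed with an SD of 0.22 on the log2 scale over 5084 genes, and of 0.21 over the 28 chaperone genes with at least 2 detected probe sets. This is the only error in the data, and it holds no variation between animals or arrays.

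Most chaperone genes were slightly lower on the knockout array, and the inducible Hsp70 genes Hspa1a and Hspa1b were higher. Of the 42 detected genes, 36 (85.7%) were lower and 6 higher, against 50% lower among all 11440 detected genes. The median difference was -0.24, or 85.0% of the wild-type level, and the middle range of the chaperone genes ran from -0.32 to -0.08, against -0.15 to 0.15 for all detected genes. Of the 6 higher genes, Cct4, Dnaja3, Dnajb1 and Hspb8 differed by at most 0.02. Hspb8 lay at the floor, so its sign carries no information. Cct4 (2733 against 2745) and Dnaja3 (243 against 244) counted as higher only through the centring. Among the lower genes, Trap1 (-0.01), Tcp1 (-0.03) and Hspb1 (-0.04) differed little as well. Without centring 38 of 42 genes (90.5%) were lower, against 51.8% of all detected genes. With loess normalization, which removes a curve along mean intensity, 34 of 42 (81%) were lower, against 49.5%.

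The differences were small for single genes. Counts were made at a ratio of 5 to 4 either way, which is 20% lower or 25% higher. At least 20% lower were 11 of 42 chaperone genes (26.2%), against 7.8% of all detected genes. At least 25% higher were 2 of 42 (4.76%), against 9.48%. Past 1.5-fold, 1 gene was lower (Bag3) and none higher, against 1.55% and 2.3% of all genes, and none was past 2-fold either way, against 0.21% lower and 0.455% higher. A lower value by more than the SD between probe sets was seen in 23 chaperone genes (54.8%), against 16.2% of all genes. A higher value by more than this SD was seen in 2 (4.76%), against 17.2%. The lower values were thus spread over many genes.

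Separate probe sets of a gene mostly gave the same direction. All detected probe sets were lower in 17 of the 28 chaperone genes with at least 2 (60.7%), against 28.6% of the 5084 genes of this kind. All were higher in 2 of the 28, Hspa1b and Dnajb1 (7.14%), against 28%. Of the 101 detected chaperone probe sets, 84 were lower, against 49.4% of all detected probe sets of 1 gene. The lean was as large among bright genes. Of the 39 chaperone genes above the 75th percentile of intensity, 34 were lower with a median of -0.25, while all 6949 genes above it had a median of -0.01 and 52.6% were lower.

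**Figure D1:**
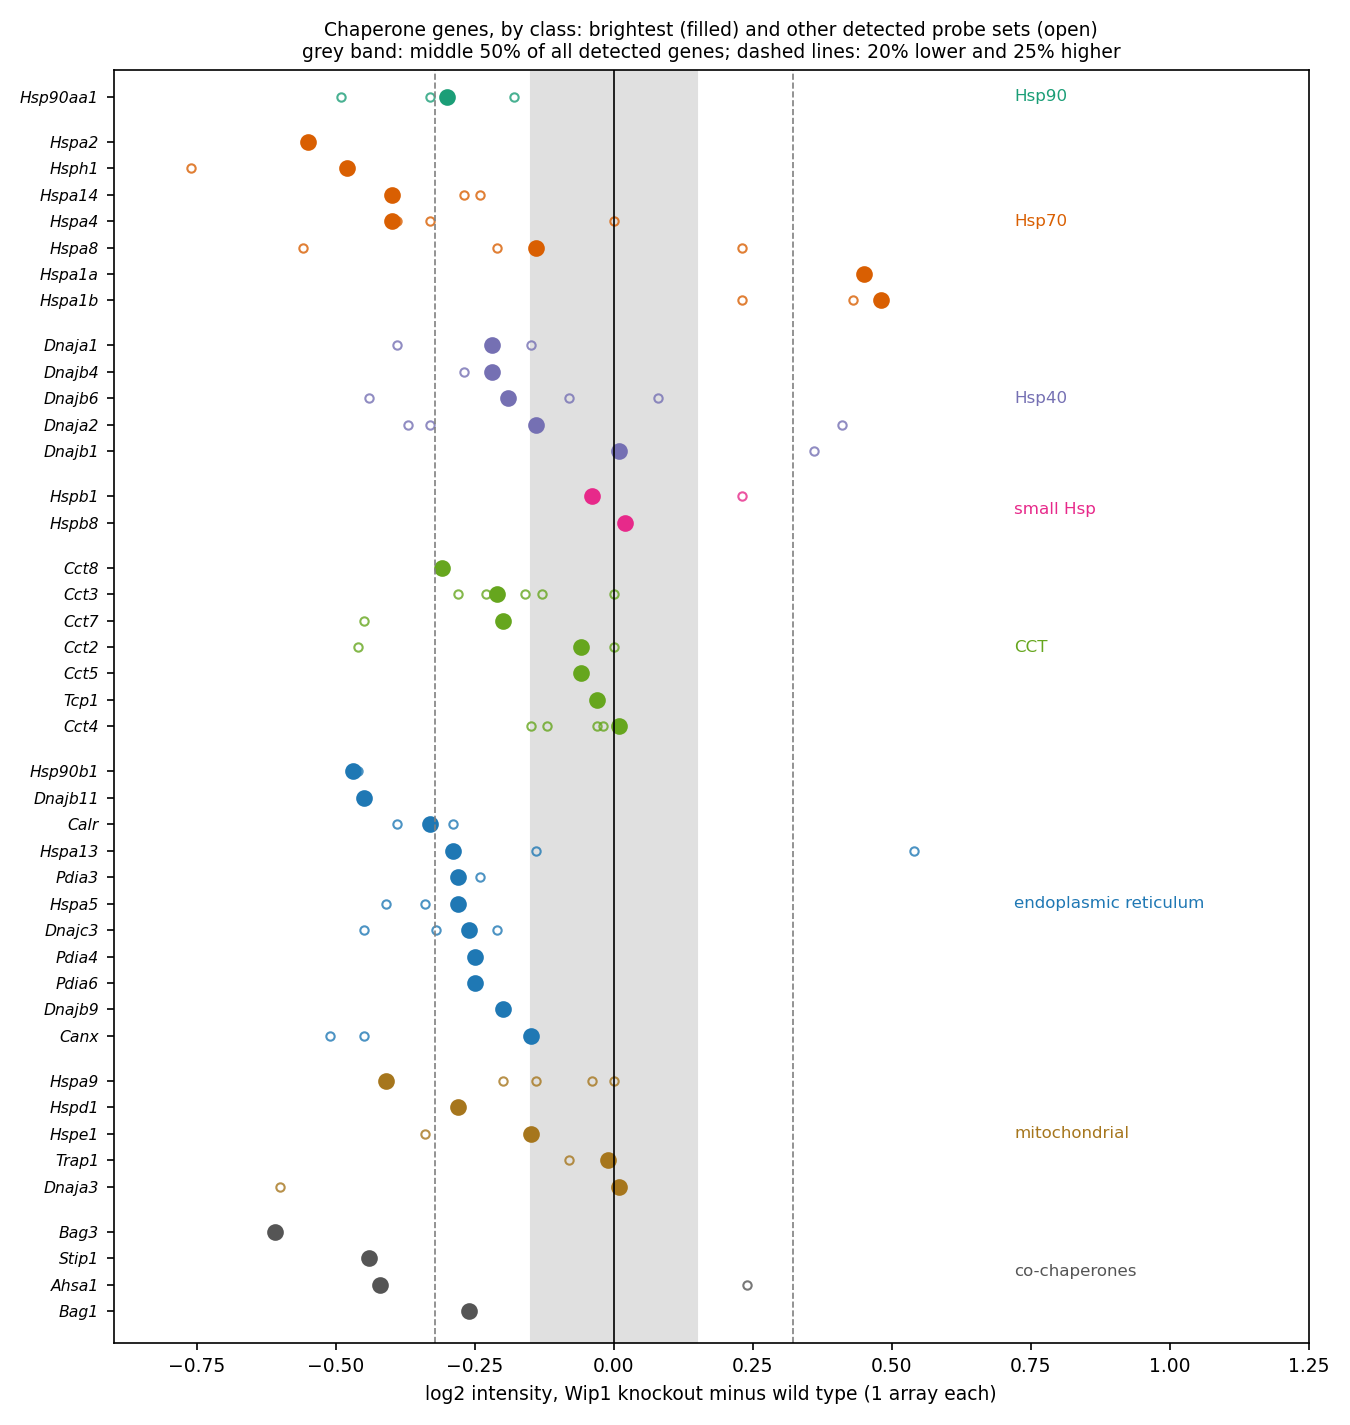
Log2 intensity of the knockout minus the wild-type array for each detected chaperone gene, with 1 array per genotype. Filled points are the brightest probe set of a gene and open points its other detected probe sets, and the grey band from -0.15 to 0.15 holds the middle range of all detected genes. The dashed lines mark 20% lower and 25% higher. Most points lie left of 0, the filled points of the endoplasmic reticulum genes lie between -0.47 and -0.15, and Hspa1a and Hspa1b are the only filled points right of the dashed line.

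Hsp90aa1, the stress-inducible cytosolic Hsp90, was read by 4 detected probe sets, and all were lower in the knockout. The brightest gave an intensity of 6010 in the knockout and 7481 in the wild type, a difference of -0.30. The next gave 3933 against 5588 (-0.49), and a further one 3269 against 3739 (-0.18). A dim one lay under the floor (the array's median intensity, to which lower values were set) in the knockout, which makes its difference of -0.33 a bound. The probe sets thus shared a direction and varied in size.

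The Hsp70 class held both the lower genes and the only clearly higher ones. Of its 7 genes, 5 were lower and 2 higher, with a class median of -0.40, and 4 were lower by at least 20%. This median was -0.27 when each gene took the median of its probe sets, -0.25 with the floor at the 75th percentile and -0.09 without probe sets marked _s_at, _x_at or _a_at. The higher ones were Hspa1a and Hspa1b, neighbouring genes for the near-identical Hsp70 proteins that cells make in response to heat. Hspa1a had an intensity of 188 in the knockout against 139 in the wild type, 1.37-fold higher (log2 0.45). The 3 probe sets of Hspa1b gave 433 against 312 (0.48), 222 against 167 (0.43) and 160 against 138 (0.23). All 4 probe sets were higher, but the copies are so alike that probes may read both, so they are not independent witnesses.

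Hsph1 encodes Hsp105, a large Hsp70 relative that exchanges the nucleotide of Hsp70, and it went the other way. Its probe sets gave 902 against 1272 (-0.48) and 172 against 293 (-0.76). Hspa4, another exchange factor of this kind, was lower in its 3 brighter probe sets, from -0.40 (933 against 1239) to -0.33, while the dimmest read 130 against 132. Hspa14, which encodes an Hsp70 relative found at the ribosome, gave 390 against 518 (-0.40) and was lower in all 3 of its probe sets. Hspa2, known for its role in the testis, was dim, at 54.3 against 80.4 (-0.55), by its only probe set.

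Hspa8, the constitutive Hsc70 present in all cells, did not have a settled direction. Its brightest probe sets gave 10590 against 11815 (-0.14) and 8437 against 9821 (-0.21). Another gave 1009 against 1507 (-0.56), and the dimmest was higher, at 534 against 461 (0.23). The dimmest is the only one whose name carries none of the _a_at, _s_at and _x_at marks. Lower values were thus read in 3 of the 4 probe sets, and the direction of Hspa8 depends on which is used.

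Letters of the heat shock element, the binding sequence of heat shock factors, were searched for in the promoters of the whole list and of all other genes. Promoters were those of the RefSeq table (GRCm38.p6), 250 bases before to 50 after each start, and 38 of the 45 genes were in it with 47 starts. The element was searched on both strands as a pair of units, GAANNTTC or TTCNNGAA, and as 3 units, where NN and a further GAA or TTC continue the alternation, so that each run of 3 contains the pair. At least 1 pair was in 15.1% of all 32851 promoters and at least 1 run of 3 units in 0.603%. Among the chaperone genes, 13 of 38 (34.2%) had the pair and 4 (10.5%) the run of 3, against 17% and 0.662% of all genes counted the same way. Hspd1 and Hspe1 share the same letters, and Hspa1a and Hspa1b are near-identical copies, so fewer separate stretches than genes were counted. In the Hsp70 class 3 of 6 genes had the pair, the higher Hspa1a and Hspa1b and the lower Hsph1. The lower Hspa2, Hspa4 and Hspa14 did not have it. The following stretches, on the strand of the gene with the matching letters in capitals, are from the higher Hspa1a, the lower Hsph1 and Dnajb6, and Hspd1. The pair shown for Hsph1 lies before its start, whereas its run of 3 lies just after it and is not shown. The stretches lie at chr17:34972223-34972290 (minus strand), chr5:149636332-149636399 (minus), chr5:29735822-29735894 (plus) and chr1:55088029-55088106 (minus).
Hspa1a: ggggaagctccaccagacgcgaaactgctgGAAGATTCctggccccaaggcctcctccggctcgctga
Hsph1: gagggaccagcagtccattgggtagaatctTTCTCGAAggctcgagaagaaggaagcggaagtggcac
Dnajb6: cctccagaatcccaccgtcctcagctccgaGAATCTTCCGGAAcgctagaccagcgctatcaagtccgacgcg
Hspd1: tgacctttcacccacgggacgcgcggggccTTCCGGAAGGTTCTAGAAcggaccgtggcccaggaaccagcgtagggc

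The stretch of Hspa1b at chr17:34959305-34959372 (minus strand) has the same letters as that of Hspa1a, and over the 250 bases before the start the copies differ at 3 positions. Genes with such letters went both ways. Of the 13 chaperone genes with the pair, 10 were lower and 3 higher, with a median of -0.15. The higher ones were the copies Hspa1a and Hspa1b, and Hspb8, which lay at the floor and has no reliable sign. The 4 with 3 units (Hsph1, Hspd1, Dnajb6 and Hspe1) were lower, at -0.48, -0.28, -0.19 and -0.15. Outside the list, the 1271 detected genes with the pair had a median of 0.01, with 616 lower and 655 higher, and the 45 detected genes with 3 units had a median of -0.05, with 26 lower and 19 higher. A match is a description of letters and not a measured binding site.

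The Hsp40 genes were lower by less, with a median of -0.19 over 5 genes, and none was 20% lower or 25% higher by its brightest probe set. Dnaja1, a general partner of cytosolic Hsp70, gave 2501 against 2939 (-0.22), with 1458 against 1635 (-0.15) and 568 against 752 (-0.39) in its other probe sets. Dnajb4 gave 741 against 873 (-0.22) and 124 against 150 (-0.27). Dnajb6, which keeps aggregation-prone proteins soluble, gave 1106 against 1271 (-0.19), and its dimmer probe sets read -0.08, -0.44 and, near the floor, 0.08. Their differences were close to the median of the whole list.

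Dnajb1 and Dnaja2 were less clear. Dnajb1, the heat-inducible partner of Hsp70, read 3813 against 3809 in its brightest probe set (0.01) and 2836 against 2223 in the other (0.36). Dnaja2 gave 2275 against 2531 (-0.14) in its brightest probe set and lower values in 2 others (-0.37 and -0.33). Its remaining probe set was higher, at 255 against 193 (0.41).

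The small heat shock proteins were dim on both arrays. Hspb1 (Hsp25 in mice), which binds unfolded clients and actin, gave 104 against 108 (-0.04) and 46.1 against 39.7 (0.23) in its probe sets. Hspb8, which works with Bag3 to send proteins to autophagy, read 23.5 in the knockout, under the floor of 25.9, and 25.7 in the wild type, just over the floor of 25.2. No direction can be given for this class.

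**Figure D2:**
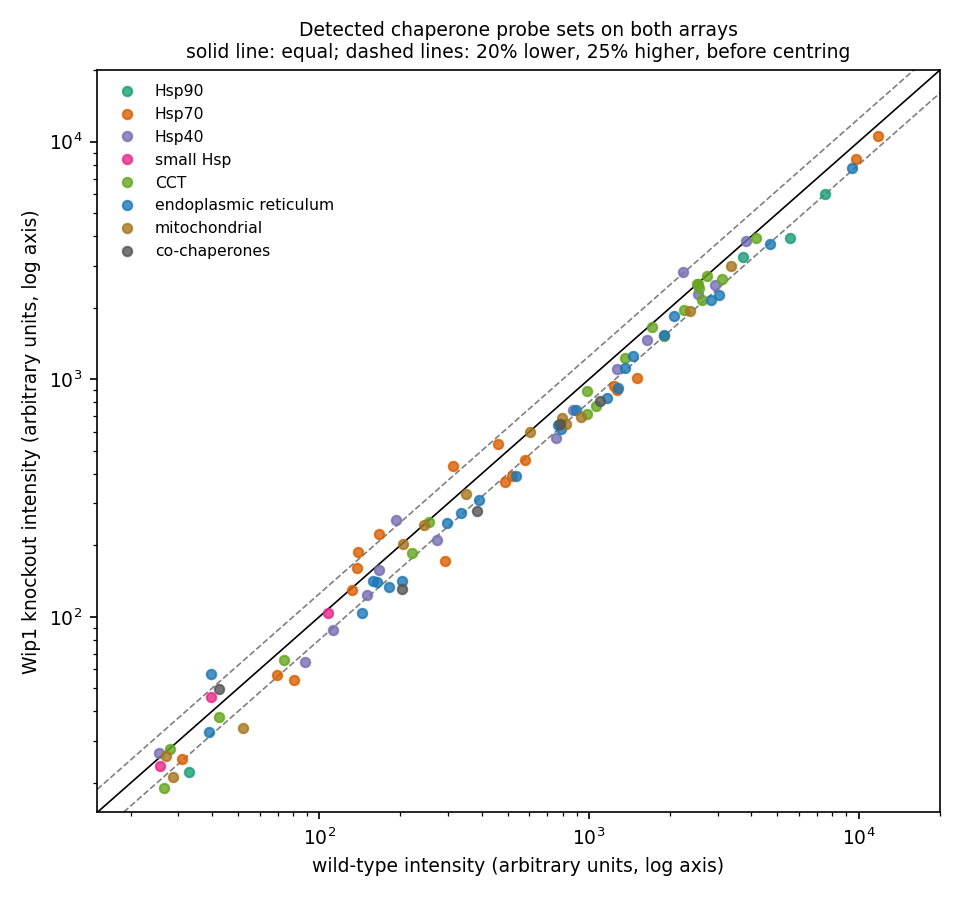
Intensity of each detected chaperone probe set on the wild-type array (x) and the knockout array (y), both on log axes in arbitrary units, coloured by class. The solid line marks equal values and the dashed lines 20% lower and 25% higher. Most points lie below the solid line over the whole range, many between it and the lower dashed line and many others below that dashed line. The points above the upper dashed line are those of Hspa1a, of 2 of the 3 Hspa1b probe sets and of single probe sets of a few other genes.

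The cytosolic chaperonin CCT, a ring of related subunits, had the smallest median among the classes with at least 5 genes. Over its 7 genes this was -0.06, or 95.9% of the wild-type level, and none was 20% lower. Over its 20 detected probe sets the median was -0.13, close to the -0.14 of the mitochondrial class. Cct8 was the lowest, at 1516 against 1893 (-0.31), followed by Cct3 at 2653 against 3106 (-0.21) and Cct7 at 1949 against 2259 (-0.20). Cct2 (-0.06), Cct5 (-0.06) and Tcp1 (-0.03), which encodes the first subunit, differed by far less than the SD of 0.22 between probe sets. A further subunit gene, Cct6a, was not on the list and was counted with the cofactors described below. It gave 2704 against 3293 (-0.27), with -0.22 in its other probe set, so the class median leaves out a lower subunit.

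The subunits ranged from -0.31 to 0.01 by their brightest probe sets, and probe sets of a single subunit varied as well. Cct2 gave 2509 against 2538 (0.00) in its second probe set and 770 against 1066 (-0.46) in its dimmest. Cct7 gave 716 against 986 (-0.45) in its dimmer one. The other detected probe sets of Cct3 ran from -0.28 (2153 against 2634) to 0.00 in the dimmest (27.8 against 28). Cct4 read 2733 against 2745 in its brightest probe set, and its next gave exactly the same deposited value, 2510, on both arrays. Such equal values occurred in 2535 probe sets (5.63%) over the whole array and in 1 of the 115 chaperone probe sets.

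The endoplasmic reticulum class was lower throughout. All 11 of its genes were lower, from -0.47 to -0.15 with a median of -0.28, and 23 of their 24 detected probe sets were lower. Hsp90b1 (Grp94), the Hsp90 of this compartment, gave 922 against 1285 (-0.47) and 837 against 1162 (-0.46). Dnajb11, a partner of BiP, gave 391 against 538 (-0.45). Calr, the calcium-binding lectin chaperone calreticulin, gave 3694 against 4677 (-0.33), with 2151 against 2839 (-0.39) and 1538 against 1904 (-0.29) in its other probe sets. These 3 genes were the ones at least 20% lower (27.3% of the class, against 7.8% of all genes).

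Hspa5 encodes BiP, the Hsp70 of the endoplasmic reticulum and a standard readout of the unfolded protein response. It was bright, at 7733 against 9451 (-0.28), with 2261 against 3030 (-0.41) and 618 against 788 (-0.34) in its other probe sets. Canx, the membrane-bound relative of calreticulin, gave 1852 against 2067 (-0.15) in its brightest probe set but 141 against 202 (-0.51) and 133 against 182 (-0.45) in the others. The disulfide isomerases, which form and reshuffle disulfide bonds, were alike, with Pdia3 at -0.28 and Pdia4 and Pdia6 at -0.25 each.

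The co-chaperones Dnajc3 (p58IPK, also an inhibitor of eIF2alpha kinases) and Dnajb9 were lower as well. Dnajc3 gave 740 against 898 (-0.26) and was lower in 4 of 4 detected probe sets, and Dnajb9 gave 1258 against 1460 (-0.20). Hspa13, a microsomal Hsp70 relative, was the one gene of the class with a higher probe set. It gave 274 against 336 (-0.29) and 142 against 158 (-0.14), but 57.2 against 39.6 (0.54) in a dim one.

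The endoplasmic reticulum stress element, through which ATF6 and XBP1 act together with NF-Y, was searched for in the same promoters on both strands as CCAAT followed, after any 9 bases, by CCACG. It was rare, in 0.119% of all promoters, and 6 of the 10 genes of this class with a promoter in the table had it, while none of the other 28 chaperone genes did. Elements are shown with 20 bases on each side, on the strand of the gene. In Hsp90b1, where the element nearest to the start of the 2 found is given, and in Calr it reads on the opposite strand. The stretches lie at chr2:34772005-34772063 (plus strand), chr10:86705513-86705571 (minus), chr8:84847055-84847113 (minus), chr11:50325780-50325838 (minus), chr14:118937807-118937865 (plus) and chr12:17266471-17266529 (plus).
Hspa5: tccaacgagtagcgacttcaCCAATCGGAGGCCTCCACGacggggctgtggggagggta
Hsp90b1: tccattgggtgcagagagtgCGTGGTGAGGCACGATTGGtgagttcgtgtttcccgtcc
Calr: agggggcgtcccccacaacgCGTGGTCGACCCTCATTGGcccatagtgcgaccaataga
Canx: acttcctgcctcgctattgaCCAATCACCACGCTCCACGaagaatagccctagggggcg
Dnajc3: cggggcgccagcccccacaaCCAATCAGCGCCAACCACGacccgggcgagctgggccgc
Pdia6: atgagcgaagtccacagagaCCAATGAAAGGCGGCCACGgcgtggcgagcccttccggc

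These 6 genes had differences from -0.47 (Hsp90b1) to -0.15 (Canx) with a median of -0.27. The class genes in the table without the element gave -0.45 (Dnajb11), -0.28 (Pdia3), -0.25 (Pdia4) and -0.20 (Dnajb9). Whether the letters went with a larger difference within the class was not tested. Among genes outside the list, 8 with the element were detected, 5 lower and 3 higher, with a median of -0.05. The lowest were the stress-induced Creld2 (207 against 323, -0.62) and Syvn1, a ubiquitin ligase of the endoplasmic reticulum (190 against 232, -0.27). The 3 higher were Pan2 (0.36), Adcy3 (0.26) and Alg12 (0.26). The letters of the CCAAT box were searched for as well, a choice made after the data were seen. Those inside the stress element were counted too, so the 6 genes with the element hold CCAAT by its definition. All 10 genes of the class in the table held CCAAT on either strand, as did 5 of 6 Hsp70 genes and 24 of all 38 chaperone genes (63.2%), against 41.1% of all genes in it.

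The mitochondrial class had a median of -0.15 over 5 genes, with 4 lower and 11 of 12 detected probe sets lower. The median was -0.24 when each gene took the median of its probe sets and -0.31 without the probe sets marked _s_at, _x_at or _a_at. Hspa9 (mortalin), the Hsp70 that pulls proteins into mitochondria, gave 694 against 933 (-0.41) and 685 against 793 (-0.20) in probe sets of like brightness, and 203 against 205 in a dimmer one. Hspd1 (Hsp60) and Hspe1 (Hsp10) encode the chamber and lid of the mitochondrial chaperonin and are neighbouring genes that share the heat shock element letters shown for Hspd1. Hspd1 gave 1935 against 2373 (-0.28), and Hspe1 gave 2989 against 3354 (-0.15) and 646 against 823 (-0.34).

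Trap1, the mitochondrial Hsp90, read 597 against 605 (-0.01) and differed least in this class together with Dnaja3. Dnaja3, the Hsp40 partner of mortalin, gave 243 against 244 (0.01), whereas its dim probe set gave 34 against 52.1 (-0.60). The class therefore held lower genes beside others that hardly differed.

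Regulators and co-chaperones of the cytosol had a median of -0.43 over 4 detected genes, all lower by their brightest probe set. This was close to the Hsp70 median (-0.40) and lay between the values of Hsp90aa1 (-0.30, or -0.49 without the _s_at, _x_at and _a_at probe sets). Bag3, an inducible nucleotide exchange factor that links Hsp70 to autophagy, gave 131 against 202 (-0.61), the largest difference of the list by brightest probe sets. Stip1 (Hop), the adaptor that passes clients from Hsp70 to Hsp90, gave 280 against 384 (-0.44). Ahsa1, an activator of the Hsp90 ATPase, gave 813 against 1096 (-0.42), although its dim second probe set was higher, at 49.6 against 42.3 (0.24).

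Bag1, a nucleotide exchange factor of Hsp70, gave 647 against 783 (-0.26). Bag3, Stip1 and Bag1 each rested on 1 probe set. Both probe sets of Hsf2, a second heat shock factor, lay under the floor on both arrays, so no difference is given for a heat shock factor.

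**Figure D3:**
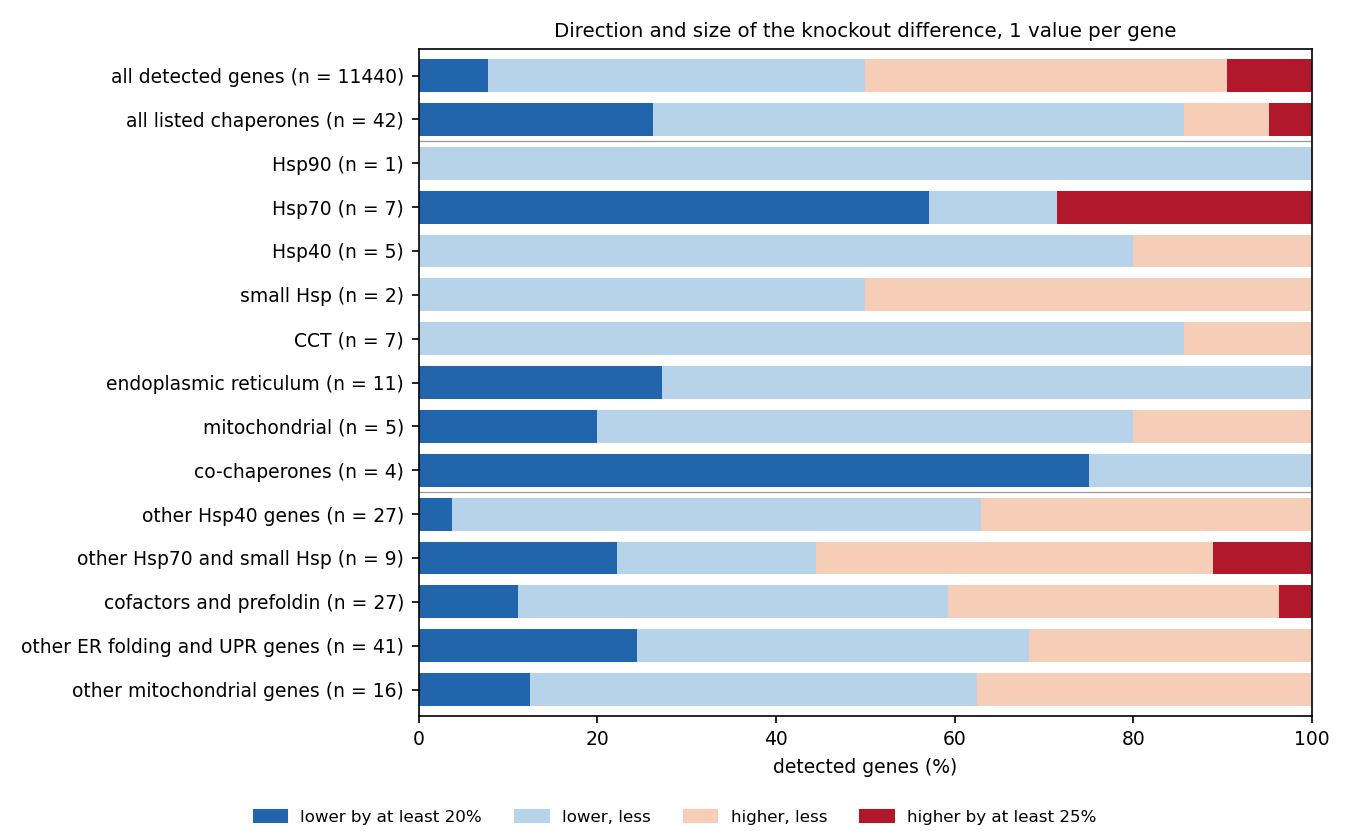
Share of detected genes, in percent, that were lower or higher in the knockout, split at 20% lower and 25% higher, for all detected genes, the chaperone list, its classes and other folding genes not on the list, with the number of genes in brackets. ER stands for endoplasmic reticulum and UPR for unfolded protein response. Lower genes fill 85.7% of the chaperone bar against 50% for all detected genes, and the largest dark blue shares are those of the co-chaperones and Hsp70.

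Other folding genes, listed apart from the 45, were shifted less. Of 120 detected, 75 (62.5%) were lower and 45 higher, with a median of -0.07. At least 20% lower were 18 (15%) and at least 25% higher 2 (1.67%), against 7.8% and 9.48% of all detected genes. The wider family thus leaned in the same direction by a smaller amount than the list itself.

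Among other endoplasmic reticulum folding and unfolded protein response genes, 10 of 41 (24.4%) were at least 20% lower and none at least 25% higher, while 28 were lower and 13 higher with a median of -0.06. Ddit3 (CHOP), a transcription factor of the stress response, differed most by its brightest probe set, at 361 against 777 (-1.09), but its other probe set went the opposite way (0.66). Creld2 (-0.62) and Manf (854 against 1253, -0.54), both induced by stress in this compartment, followed. Further genes were chosen after their values were seen. Xbp1, a transcription factor of the response, gave 1202 against 1625 (-0.42), and Hyou1, the exchange factor of BiP, gave 527 against 706 (-0.41). Ern1, the sensor kinase that splices Xbp1 RNA, went the other way at 293 against 241 (0.30) and was higher in its 3 probe sets. Ppp1r15a, a phosphatase subunit that ends the translation block of stress, gave 3191 against 2718 (0.24). The protein disulfide isomerase gene P4hb hardly differed, at 1080 against 1087.

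Cofactors and prefoldin, a list that also held the CCT subunit gene Cct6a, had a median of -0.15 over 27 genes, with 16 lower and 11 higher. Bag2, an Hsp70 cofactor, gave 112 against 164 (-0.54), and Tbce, a tubulin folding cofactor, was higher at 212 against 148 (0.53). Fkbp4, an immunophilin of Hsp90 complexes, gave 306 against 427 (-0.46) but was higher in its other probe set (0.45). Members of this list therefore went both ways.

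Other Hsp40 genes had a median of -0.07 over 27, with Dnajb12 (-0.33), Dnajb2 (-0.27) and Dnajb5 (-0.24) the most different. Other mitochondrial chaperones and proteases had a median of -0.06 over 16, led by Grpel1 (-0.34), the exchange factor of mortalin, Afg3l1 (-0.33) and the protease gene Clpp (-0.30). The list of other Hsp70 and small heat shock genes also held genes for partners of these proteins, such as Hspbap1 and Hspbp1. Its 9 detected genes had a median of 0.01, with Hspbap1 higher (57.6 against 36.8, 0.66) and Hspbp1 (-0.34) and Hspa4l (-0.33) lower. None of the 5 lists of other folding genes had a median as low as the -0.24 of the 45 genes. All these lists were drawn up with earlier results of the data known, which limits this comparison.

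**Figure D4:**
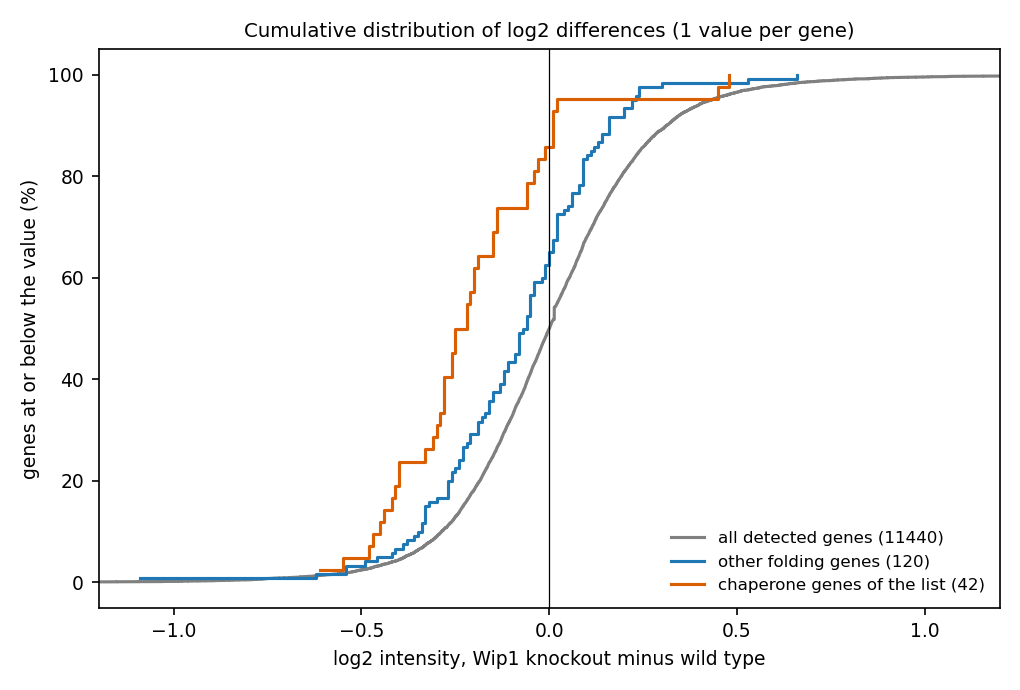
Cumulative share of genes, in percent, at or below each log2 difference (knockout minus wild type), for 42 chaperone genes, 120 other folding genes and 11440 detected genes. Genes beyond the axis are not drawn. The chaperone curve lies left of that of all genes over the middle of the axis. It starts at Bag3 (-0.61), while some genes of the array lie lower still, and ends at Hspa1a (0.45) and Hspa1b (0.48), and the curve of other folding genes lies between them over most of the range.

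The samples also differed in transcripts unrelated to folding. The targeted gene Ppm1d read 160 against 167 and 59 against 55.6 in its probe sets, whose place relative to the deletion is not given, so it checks nothing. Xist, the RNA of the inactive X chromosome, was lower in the knockout (3778 against 6227) and the Y-linked Eif2s3y higher (149 against 31.8). Of the 10 detected genes listed as stem cell markers, 4 were lower, with a summed intensity of 7542 in the knockout and 5270 in the wild type. To these sums Flt3 gave 2112 and 892 and Cd34 gave 2025 and 1512, and Hlf (0.70) and Kit (0.33) were higher too. Slamf1 (-0.66) and Tek (-0.59) were lower, and Procr (0.13), Mecom (-0.08) and Fgd5 (0.01) differed little. The sum thus mixes genes of both directions. Of the B cell and lymphoid progenitor markers 10 of 11 were higher (6981 against 3225, or 1489 against 997 without Dntt), and of the megakaryocyte markers 8 of 8 were lower (952 against 1420). The erythroid markers (5 of 8 lower, 4299 against 3959, or 432 against 575 without Car2) went both ways. So did the neutrophil and monocyte markers (7 of 11 lower, 14126 against 15930, or 10461 against 10432 without Mpo), with Csf1r higher (770 against 294, 1.40). Of the T and natural killer cell markers 3 of 4 were lower (767 against 944, or 99 against 109 without Nkg7), and Cd4 hardly differed (36.7 against 36.6). Of the markers on these lists, Alas2, Hba-a1, Ppbp, Cd3d, Cd3g, Cd2 and Gzma were not detected. The part of these differences in the chaperone values was not tested.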

How the data were processed

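Total RNA of 1 Wip1 knockout and 1 wild-type sample of mouse haematopoietic stem cells was measured on Affymetrix arrays. For each probe set the authors deposited a single linear intensity on either array, and MAS5 is the only program named, without a version, per the submitters' processing notes. Background correction and scaling are not stated in these sources, and the equal values on both arrays leave the method unsettled.

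Intensities were converted to log2 and centred, which removed a shift of -0.01. The floor was each array's median (25.9 in the knockout, 25.2 in the wild type), a probe set above it on at least 1 array was called detected, and lower values were set to it. Because the floors differ slightly, differences near them have no reliable sign. Names came from GEO's annotation of the platform, with 34945 of 1 gene, 932 of several and 9160 with no listed gene. Of the first, 34741 had a gene identifier in the reference table (GRCm38.p6). Those of several or no genes were not used. Other folding genes and markers were matched by current symbol, platform symbol or synonym.

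All 45 genes were described, with both intensities for the 3 largest differences per class and for genes whose probe sets had opposite signs by at least 0.2. Of each other list of folding genes the 3 largest were named. Values played no part in matching the members, but the lists of genes themselves were drawn up with earlier results of these data known. No test was possible with 1 array per group, and their number limits the precision. Steps ran in Python 3.11.15 with statsmodels 0.14.6 and were tested on simulated data. A total of 9 alternatives were planned and 2 were added after the data were seen.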

Additional observations from a re-analysis of the deposited data

How the results depend on the processing

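Under 11 alternatives of centring, normalization, floor, offset and probe set choice, the median of the chaperone genes stayed between -0.26 and -0.20. At least 20% lower were 9 to 12 genes (23.1% to 35.3%), against 5.12% to 9.28% of all genes. The lowest share of lower genes was 79.4% (27 of 34), against 49.3% of all genes, when the _s_at, _x_at and _a_at probe sets were left out. That setting also brought the Hsp70 median to -0.09 and the genes at least 25% higher to 1, against 10.2% of all genes. Hspa1b and Hspa8 were at 0.23 each, by the construction of this setting from fewer probe sets. For counts past 1.5-fold, the shares of all genes are given above for the main processing only. Genes at least 1.5-fold lower numbered 2 after quantile normalization and 2 with the median over probe sets, but 0 with the floor added as an offset, and 1 gene was 1.5-fold higher with a floor at the 25th percentile and 1 with none, where the dim Hsf2 enters. The cause was not tested otherwise. No paired analysis was possible because each genotype has 1 array. With 1 array each, replicates could not be left out, and dim probe sets such as those of Hspb8 and Hsf2 lie at the floor.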
